A study of Mus musculus with 20 samples.

Results

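The Hedgehog pathway was followed through 7 of its genes in articular chondrocytes of mice, the cells that make up joint cartilage. The genes were chosen by name as Smoothened (Smo), its receptors, transducers and target genes, and all 7 (Smo, Ptch1, Gli1, Gli2, Gli3, Hhip and Sufu) were found among the 54532 genes of the deposited table. Per the labels, chondrocytes of 6-week-old mice were treated for 48 h with 25-hydroxycholesterol (25HC) at 20 µM, its 3-sulfate (25HC3S) also at 20 µM, GW3965 at 2 µM or DMSO as Vehicle, with 5 RNA libraries per group and 20 in all. The labels give no genotype or strain. They also do not state that replicates are separate animals or cultures, and the p-values therefore cover only the spread among replicates, which may be technical. 25HC is an oxidised cholesterol, 25HC3S carries a sulfate in place of its 3-hydroxyl, and GW3965 is a synthetic compound that activates the liver X receptors (LXR).

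In vertebrate cells the receptor PTCH1 holds the membrane protein SMO inactive until a Hedgehog ligand (SHH, IHH or DHH) binds to PTCH1. Active SMO gathers in the primary cilium and releases the GLI transcription factors from SUFU, and GLI proteins then raise the transcription of Gli1, Ptch1 and Hhip, whose level is often read as pathway activity. Cholesterol and some oxysterols are known to bind SMO, and in cartilage IHH from growth plate chondrocytes governs their division and maturation.

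Expression is given as FPKM, the number of sequenced fragments scaled to the length of the gene and to the size of the library, so levels of different genes can be compared. Libraries held 14653777 to 19365220 fragments in genes. A set of 4 libraries, Vehicle replicates 2, 3 and 4 and 25HC3S replicate 1, stood apart from the other 16: they had 237 to 1171 genes with exactly 1 fragment, against 1808 to 2057 in the 16, and are called the 4 libraries here. Differences that passed with them are also given without them, and without them Vehicle rests on replicates 1 and 5. The label of the cells was checked on 12 chondrocyte markers, all of which averaged at least 1 FPKM, with a summed level of 1818 to 5284 FPKM. The 10 macrophage markers did too, at 229 to 556 FPKM, as did 5 of 8 osteoblast and osteocyte markers, while 6 erythroid and neutrophil markers summed to at most 1.00 FPKM. Of 7 synovial and tendon markers 5 reached that average. Their sum was 160.9 to 199.9 FPKM in the 4 libraries and 216.6 to 302.7 FPKM in the 16. Of 5 adipocyte markers 3 reached it, as did 1 of 5 endothelial and 1 of 5 muscle markers. In bulk RNA fewer cells of a type and less RNA per cell cannot be told apart. The LXR target Abca1, which exports cholesterol, averaged 110.8 FPKM in GW3965 and 11.2 FPKM in Vehicle.

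The windows around the transcription starts of Ptch1 and Hhip are shown because both genes are targets and inhibitors of the pathway and were high in the same 3 libraries. Each runs from 250 bases before to 50 bases after the start that RefSeq gives on GRCm38, in 5′ to 3′ direction, and the capitals mark the 50 bases from the start on. The Ptch1 window lies on the minus strand at chr13:63565686-63565985 and the Hhip window on the minus strand at chr8:80057959-80058258. This Ptch1 start lies inside the gene, whose 5′ end is at 63573598. Of the 10 Ptch1 transcripts in the GENCODE M21 annotation, 1 held the bases just after that start. Other starts of these genes were not searched.
Ptch1: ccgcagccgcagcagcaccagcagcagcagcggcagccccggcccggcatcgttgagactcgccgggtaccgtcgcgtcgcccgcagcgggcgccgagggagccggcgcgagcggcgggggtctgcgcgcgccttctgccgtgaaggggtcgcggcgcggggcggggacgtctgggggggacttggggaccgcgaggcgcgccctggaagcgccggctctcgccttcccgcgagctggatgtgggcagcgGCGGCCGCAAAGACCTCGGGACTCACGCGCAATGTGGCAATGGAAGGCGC
Hhip: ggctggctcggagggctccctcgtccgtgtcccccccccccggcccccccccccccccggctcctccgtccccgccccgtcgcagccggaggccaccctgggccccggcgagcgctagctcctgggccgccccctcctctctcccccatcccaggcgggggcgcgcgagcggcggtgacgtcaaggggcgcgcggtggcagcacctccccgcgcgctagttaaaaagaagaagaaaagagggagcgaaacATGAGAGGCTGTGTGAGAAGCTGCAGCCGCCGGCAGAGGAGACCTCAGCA
RefSeq gave such a window for 6 of the 7 genes, all but Gli1. The GLI consensus GACCACCCA and its core CCACCCA, which lies inside it, were searched on both strands, and 0 of the 6 windows held either of them. Over the windows of all 32851 entries, 0.253% held the consensus and 9.30% the core. The GC content was 76.3% in the Ptch1 window and 73.7% in the Hhip window, against a median of 52.7%.

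The 7 genes were transcribed unevenly, with Smo far above the rest and the target genes Hhip and Gli1 lowest. Over the 20 libraries Smo averaged 37.3 FPKM, more than 91.9% of the 12752 genes tested, and Gli3 followed with 5.46 FPKM, Sufu with 4.06, Ptch1 with 3.26 and Gli2 with 1.34 FPKM. Hhip averaged 0.450 FPKM and Gli1 0.177 FPKM. Smo exceeded Gli3 in 20 of 20 libraries, by a ratio of means of 6.84, and Ptch1 exceeded Gli2 in 20 of 20. Gli3 and Sufu were close neighbours in this order: Gli3 was the higher in 17 of 20 libraries, with Vehicle replicate 2 and GW3965 replicates 1 and 3 as the exceptions. Sufu exceeded Ptch1 in 17 of 20 as well, and there the exceptions were Vehicle replicates 3 and 4 and 25HC3S replicate 1, all among the 4 libraries.

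**Figure D1:**
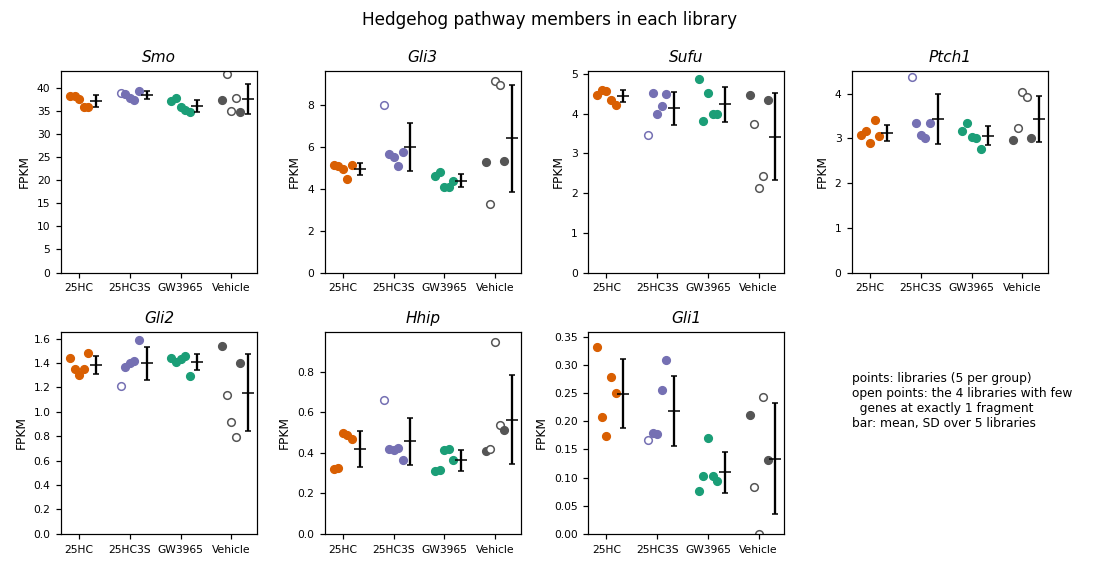
FPKM of each Hedgehog gene in every library, one panel per gene with its own linear axis from 0, points for libraries, open points for the 4 libraries, and bars for the mean and SD of 5 libraries. The open Vehicle points spread widest, as for Gli3, which ran up to 9.19 FPKM there, while the 25HC points of Gli1 all lie above those of GW3965.

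Of the 5 Hedgehog genes that passed the filter on low values (at least 1 FPKM in at least 5 libraries), 0 were called in each of the 6 comparisons between groups. The test was limma on log2(FPKM + 1) over all 20 libraries, with Benjamini-Hochberg adjustment over the 12752 genes and a call at an adjusted p under 0.05, and differences below are on that log2 scale unless a unit is given. Of all genes tested, 0.0392% were called for 25HC against Vehicle, 1.61% for 25HC3S against Vehicle and 6.46% for GW3965 against Vehicle. Between the treated groups 0.816% were called for 25HC3S against 25HC, 1.74% for 25HC against GW3965 and 4.63% for 25HC3S against GW3965. With 5 genes, 0 calls is close to what these shares give. The groups of all 5 genes also overlapped in 25HC against Vehicle and in 25HC3S against Vehicle, where 2.33% and 2.16% of all genes did not overlap. In a fit without the 4 libraries, 0 of the 5 were called for 25HC against Vehicle, beside 0.0235% of all genes, and 0 for 25HC3S against Vehicle, beside 3.95%. At an unadjusted p under 0.05 there was 1 gene for 25HC against Vehicle (Sufu) and 2 for GW3965 against Vehicle (Gli3 and Sufu). There was 1 for 25HC3S against GW3965 (Gli3) and 0 in the other 3 comparisons. Of all 12752 genes, 3863 were under it for 25HC against Vehicle, 4069 for GW3965 against Vehicle and 1607 for 25HC3S against GW3965. With 5 genes, these counts are close to what such shares give. The comparisons with Vehicle share its 5 libraries, so their values are not independent of each other.

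Coordinates are those of the deposited table, which for all 7 genes equal GENCODE M21 on GRCm38. Smo (chr6:29735503-29761365, plus strand) encodes the membrane protein that passes the signal on and that oxysterols can bind, and its gene also holds the pseudogene Gm13717 (up to 2.70 FPKM), with which fragments could be shared. Its level was 38.3, 38.2, 37.5, 35.8 and 35.8 FPKM in 25HC and 38.8, 38.6, 37.8, 37.3 and 39.4 FPKM in 25HC3S. It was 37.2, 37.7, 35.8, 35.3 and 34.7 FPKM in GW3965, against 37.4, 43.0, 35.0, 37.8 and 34.8 FPKM in Vehicle. All groups overlapped, and the highest value belonged to Vehicle replicate 2, the only one of the 4 libraries outside the range of the 16 for this gene. The standard error of Smo was the smallest of the 5 tested genes: the difference of 25HC from Vehicle was -0.014 ± 0.057 (SE, n = 5 each), with a 95% interval of -0.13 to 0.11 (limma adjusted p = 0.869). For 25HC3S against Vehicle it was 0.033, with an interval of -0.087 to 0.15, and for GW3965 against Vehicle -0.052, with an interval of -0.17 to 0.067.

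Ptch1 (chr13:63508328-63573598, minus strand) encodes the ligand receptor that restrains SMO and is itself a target of GLI. It had 3.07, 3.17, 2.89, 3.40 and 3.06 FPKM in 25HC and 4.38, 3.35, 3.08, 3.00 and 3.35 FPKM in 25HC3S. It had 3.17, 3.34, 3.02, 3.01 and 2.77 FPKM in GW3965, against 2.97, 3.22, 4.03, 3.93 and 3.00 FPKM in Vehicle. The 3 values near or above 4 FPKM, in 25HC3S replicate 1 and Vehicle replicates 3 and 4, were all from the 4 libraries, and every other library lay between 2.77 and 3.40 FPKM. The differences from Vehicle were -0.10 for 25HC (95% interval -0.28 to 0.081), -0.00070 for 25HC3S (-0.18 to 0.18) and -0.12 for GW3965 (-0.30 to 0.060). Without the 4 libraries the groups averaged 3.12 FPKM in 25HC, 3.19 in 25HC3S, 3.06 in GW3965 and 2.99 FPKM in Vehicle, and the differences from Vehicle were then 0.046, 0.072 and 0.025.

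**Figure D2:**
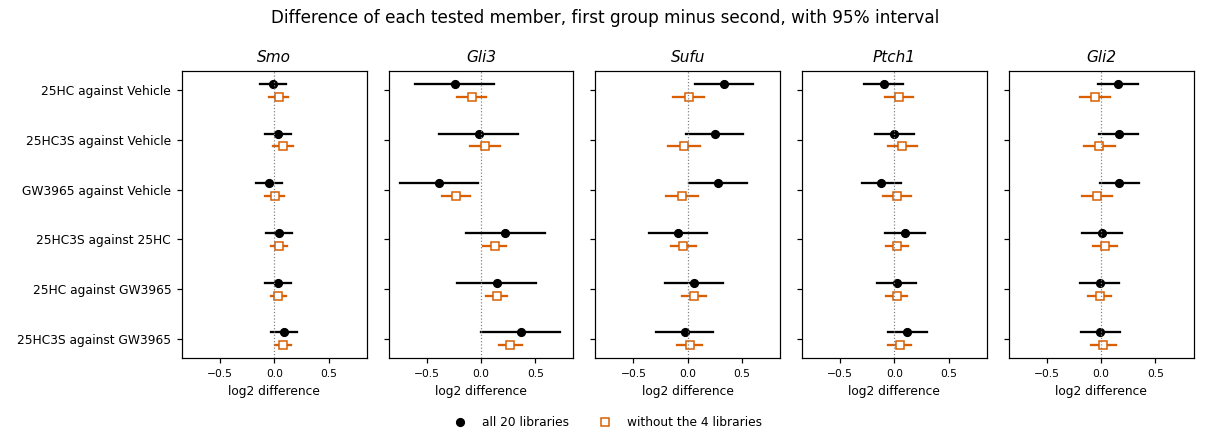
Difference of the 5 tested Hedgehog genes on the log2(FPKM + 1) scale (x axis, first group minus second) in the 6 comparisons (y axis), with 95% intervals, for all 20 libraries (filled) and without the 4 libraries (open). Intervals of Smo are the narrowest with all libraries, those of Gli3 the widest, and without the 4 libraries Gli3 lies at -0.23 for GW3965 against Vehicle and 0.27 for 25HC3S against GW3965.

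Sufu (chr19:46396896-46488804, plus strand) encodes the inhibitor that holds GLI proteins in the cytoplasm. Its level was 4.48, 4.60, 4.58, 4.34 and 4.22 FPKM in 25HC and 3.47, 4.51, 4.00, 4.18 and 4.49 FPKM in 25HC3S. It was 4.86, 3.82, 4.51, 3.99 and 3.98 FPKM in GW3965, against 4.47, 3.73, 2.12, 2.44 and 4.35 FPKM in Vehicle. The 4 lowest of the 20 values were those of the 4 libraries, and Vehicle replicates 1 and 5 lay within the range of the treated groups. With all libraries the difference from Vehicle was 0.34 ± 0.13 (SE) for 25HC (limma adjusted p = 0.147) and 0.28 ± 0.13 for GW3965 (adjusted p = 0.146), neither of which passed. Both differences were near 0 without the 4 libraries, with means of 4.44 FPKM in 25HC, 4.23 in GW3965 and 4.41 FPKM in Vehicle. Sufu passed when some single Vehicle libraries were left out, which leaves the 4 libraries a larger share of that group. For 25HC against Vehicle it was called without Vehicle replicate 1 (0.42, limma adjusted p = 0.037) or replicate 5 (0.41, adjusted p = 0.0426). For GW3965 against Vehicle it was called without Vehicle replicate 1 (0.36, limma adjusted p = 0.0425). Over all genes, fits without 1 library called 1 to 2659 genes in the first comparison and 450 to 3247 in the second.

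Gli2 (chr1:118834132-119053619, minus strand) and Gli3 (chr13:15463235-15730026, plus strand) encode the transcription factors that carry the signal, GLI2 chiefly as activator and GLI3 chiefly as the repressor formed when SMO is silent. Gli2 had 1.44, 1.35, 1.30, 1.35 and 1.48 FPKM in 25HC and 1.21, 1.37, 1.40, 1.42 and 1.59 FPKM in 25HC3S. It had 1.44, 1.41, 1.43, 1.46 and 1.29 FPKM in GW3965, against 1.54, 1.14, 0.916, 0.790 and 1.40 FPKM in Vehicle. As for Sufu, the 4 libraries held the 4 lowest values. The differences of Gli2 from Vehicle were 0.16, 0.16 and 0.17 for 25HC, 25HC3S and GW3965 (limma adjusted p of 0.209, 0.340 and 0.179), and without the 4 libraries they were -0.053, -0.017 and -0.039. Gli2 passed for GW3965 against Vehicle in the fit without Vehicle replicate 1 (0.23, limma adjusted p = 0.0495). Among the fits that left out 1 library, 450 to 3247 of all genes were called in that comparison.

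Gli3 was the most variable of the 7 on the log2 scale, with an SD of 0.312 over the 20 libraries. It had 5.14, 5.11, 4.98, 4.46 and 5.16 FPKM in 25HC and 8.03, 5.67, 5.52, 5.11 and 5.75 FPKM in 25HC3S. It had 4.63, 4.83, 4.09, 4.11 and 4.37 FPKM in GW3965, against 5.31, 3.29, 9.19, 8.99 and 5.35 FPKM in Vehicle. Vehicle thus held both the lowest and the highest values of the series, all 3 of them from the 4 libraries. Every 25HC3S value exceeded every GW3965 value, in a comparison where 12.2% of all genes tested did not overlap between the groups, in either direction. With all libraries the difference was 0.36 ± 0.17 (SE) for 25HC3S against GW3965 (limma adjusted p = 0.392) and -0.39 ± 0.17 for GW3965 against Vehicle (limma adjusted p = 0.139), and neither passed.

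Without the 4 libraries Gli3 was the only one of the 5 genes in the limma fit that passed, and it did so in those 2 comparisons. It was lower in GW3965, at 4.41 ± 0.325 FPKM (SD, n = 5), than in Vehicle, at 5.33 ± 0.0239 FPKM (n = 2), a difference of -0.23 ± 0.06 (SE, limma adjusted p = 0.033), where 7.77% of all genes were called. It was higher in 25HC3S, at 5.52 ± 0.285 FPKM (n = 4), than in GW3965, a difference of 0.27 ± 0.05 (limma adjusted p = 0.0011), where 17.9% were called. 25HC lay between them at 4.97 ± 0.296 FPKM (n = 5), and its difference from GW3965 did not pass with or without the 4 libraries. The calls also came with array weights, which give libraries with a large spread less weight (-0.22, adjusted p = 0.0408, and 0.27, adjusted p = 0.00155). Gli3 was also called for GW3965 against Vehicle without Vehicle replicate 2 alone (-0.57, adjusted p = 0.020). Among the fits that left out 1 library, 450 to 3247 of all genes were called for GW3965 against Vehicle. The doses of 25HC3S (20 µM) and GW3965 (2 µM) differed, so that comparison is not at a matched dose. The summed level of 10 genes of dividing cells was, outside the 4 libraries, 154 to 171 FPKM in 25HC3S and 94.8 to 104 FPKM in GW3965, against 148 to 159 FPKM in Vehicle, and its part in the Gli3 difference was not tested. The 10 macrophage markers summed there to 302.5 to 374 FPKM in 25HC3S and 449 to 556 FPKM in GW3965, against 475 to 541 FPKM in Vehicle, and their part was not tested either.

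**Figure D3:**
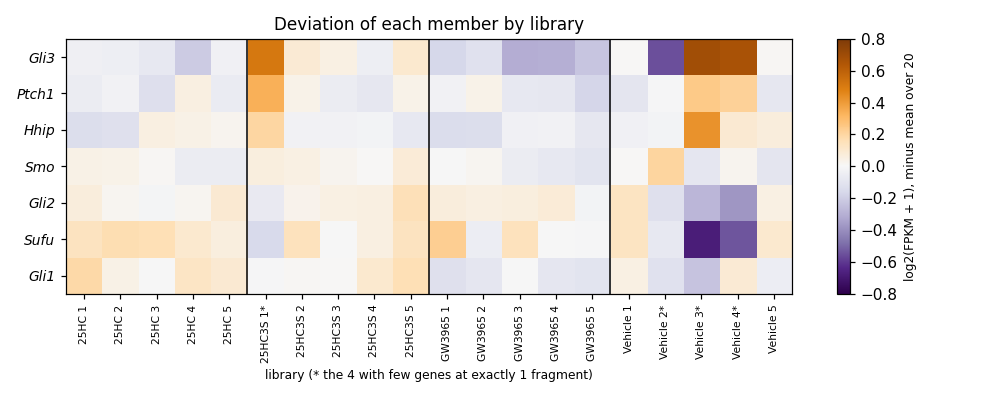
Deviation of each Hedgehog gene (rows) from its mean over 20 libraries on the log2(FPKM + 1) scale (colour, orange above and purple below) in every library (columns, by group, the 4 libraries starred). Gli3, Ptch1 and Hhip are orange and Sufu and Gli2 purple in Vehicle replicates 3 and 4 and 25HC3S replicate 1, and Gli3 is purple in Vehicle replicate 2, where it had 3.29 FPKM.

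A pattern in these genes was shared by 3 of the 4 libraries. In Vehicle replicates 3 and 4 and 25HC3S replicate 1, Gli3, Ptch1 and Hhip were above the highest of the 16 other libraries, and Gli2 and Sufu below the lowest of them. Gli3 was 1.85, 1.81 and 1.61 times the mean of the 16 in these 3 libraries, and Sufu 0.489, 0.564 and 0.799 times. The ratio of Gli3 to Gli2 FPKM was 2.81 to 4.13 in the 16 libraries and reached 11.4 in Vehicle replicate 4. Vehicle replicate 2 differed from those 3, with Gli3 below the range of the 16 at 3.29 FPKM and Ptch1 and Hhip within it. Mitochondrial genes took 3.14% to 4.07% of the fragments in those 3 libraries, 0.369% in Vehicle replicate 2 and 0.888% to 1.41% in the 16. Whether these differences are connected was not tested.

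Genes whose profile over the 20 libraries was most like that of Gli3 were Nup214, a nuclear pore component, Plxdc2, a membrane protein, and Usf3. Their root mean square difference from Gli3, after centring each gene on the log2 scale, was 0.0936, 0.0969 and 0.103. For Sufu, the other gene with an SD of at least 0.2, they were Rab34, a small GTPase of ciliogenesis, at 0.0677, Rpn2, a subunit of the oligosaccharyltransferase, at 0.0750, and Plod1, a collagen lysyl hydroxylase, at 0.0760. These likenesses describe the 20 libraries, in which the 4 libraries carry most of the spread.

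Gli1, the transcription factor whose own transcription is the classic readout of the pathway, was near the limit of detection. It had 31, 19, 17, 25 and 25 fragments in 25HC (0.332, 0.208, 0.174, 0.279 and 0.251 FPKM) and 13, 18, 16, 25 and 26 fragments in 25HC3S (0.167, 0.180, 0.177, 0.256 and 0.309 FPKM). It had 7, 9, 14, 9 and 8 fragments in GW3965 (0.0769, 0.102, 0.171, 0.102 and 0.0939 FPKM), against 20, 6, 0, 19 and 12 fragments in Vehicle (0.211, 0.0833, 0, 0.243 and 0.131 FPKM). No library reached 1 FPKM, so Gli1 did not enter the fit over all genes and was tested on its FPKM with a two-sided exact permutation test, adjusted over its 6 comparisons. With 5 libraries against 5 the smallest p that test can give is 0.00794.

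Gli1 averaged higher with either oxysterol than with GW3965, a difference that passed only under an adjustment limited to the comparisons of Gli1. It averaged 0.249 ± 0.0612 FPKM in 25HC and 0.109 ± 0.0362 FPKM in GW3965 (SD, n = 5 each), a ratio of 2.28, and the groups did not overlap (exact permutation p = 0.00794, adjusted p = 0.0476). Of the genes tested over the whole table, 11.1% did not overlap between these groups. In 25HC3S Gli1 averaged 0.218 ± 0.0621 FPKM, 1.99 times the GW3965 level, with overlapping groups (exact permutation p = 0.0159, adjusted p = 0.0476). Both adjusted p lie close to the threshold and cover the comparisons of Gli1 alone. The genes of the limma fit were adjusted over all genes tested, so the 2 kinds of call are not on a par. The exact tests of Gli1 and Hhip were not adjusted together. The differences in mean FPKM without the 4 libraries were 0.140 for 25HC and 0.121 for 25HC3S against GW3965 (exact permutation adjusted p = 0.0476 for both). The doses of the oxysterols (20 µM) and of GW3965 (2 µM) differed. Leaving out 1 library raised the adjusted p to 0.0952 for 25HC without GW3965 replicate 1, 2, 4 or 5, and for 25HC3S without its own replicate 2, 3, 4 or 5 or the same GW3965 replicates, in a design whose smallest p is 0.0159, while the difference in mean FPKM stayed positive. Summed over a group, 117 fragments were seen in 25HC, 98 in 25HC3S, 47 in GW3965 and 57 in Vehicle. The summed level of the genes of dividing cells was 136 to 155 FPKM in 25HC, against 94.8 to 104 FPKM in GW3965, and their part in the Gli1 difference was not tested.

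Against Vehicle no treatment passed for Gli1. Vehicle averaged 0.134 ± 0.0979 FPKM, and the ratio to it was 1.86 for 25HC (exact permutation p = 0.0635, adjusted p = 0.127), 1.63 for 25HC3S (p = 0.143, adjusted p = 0.214) and 0.816 for GW3965 (p = 0.611, adjusted p = 0.611). Vehicle replicate 3, with 0 fragments, allows a level of up to 0.0402 FPKM (3 fragments, counting error only). In 25HC, 25HC3S and GW3965 the counting error alone (20.7%, 22.6% and 32.6% of the mean) was near the observed spread of 24.6%, 28.5% and 33.2%, whereas in Vehicle it was 29.6% against 73.2%. With the 2 Vehicle libraries outside the 4, Gli1 averaged 0.171 FPKM, between 25HC3S and GW3965, and the smallest p the exact test can then give is 0.0952 with the 5 libraries of 25HC or GW3965 and 0.133 with the 4 of 25HC3S.

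Gli1 (chr10:127329882-127341974, minus strand) overlaps Arhgap9 on the other strand, with 62 shared exon bases, and the antisense gene Gm47200, with 265 shared bases, which was listed at 0 in every library. The strand setting of the counting is not given in the sources used here, so fragments of these genes cannot be told apart where they overlap. Arhgap9, a GTPase-activating protein of blood cells, averaged 2.05 ± 0.336 FPKM in 25HC, 1.70 ± 0.274 in 25HC3S, 2.44 ± 0.438 in GW3965 and 1.63 ± 0.792 FPKM in Vehicle (SD, n = 5 each). Its mean was highest in GW3965, where that of Gli1 was lowest, while from 25HC to 25HC3S to Vehicle both means fell. The part of Arhgap9 fragments in the Gli1 level was not tested.

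**Figure D4:**
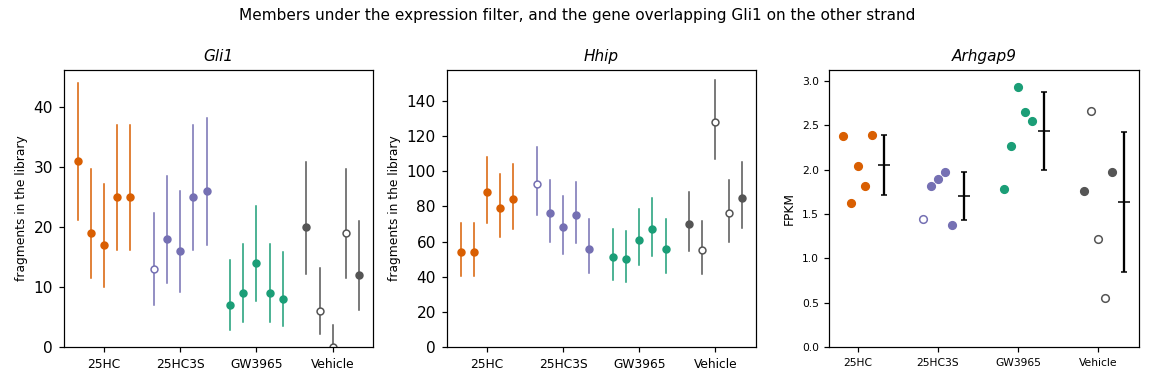
Fragments of Gli1 and Hhip in every library with exact 95% Poisson intervals for counting error (left and middle), and FPKM of Arhgap9 with mean and SD (right), by group, with open points for the 4 libraries. Gli1 has 17 to 31 fragments per library in 25HC and 7 to 14 in GW3965, and the highest Hhip value is the 128 fragments of Vehicle replicate 3.

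Hhip (chr8:79965851-80058006, minus strand) encodes a membrane protein that binds and sequesters Hedgehog ligands and is, like Gli1 and Ptch1, a target of the pathway. It had 0.318, 0.326, 0.496, 0.485 and 0.465 FPKM in 25HC and 0.658, 0.418, 0.414, 0.423 and 0.366 FPKM in 25HC3S. It had 0.308, 0.313, 0.411, 0.416 and 0.362 FPKM in GW3965, against 0.407, 0.420, 0.944, 0.534 and 0.512 FPKM in Vehicle. The groups overlapped in all 6 comparisons, and none passed the exact permutation test after adjustment. The smallest p was that of GW3965, at 0.362 ± 0.0514 FPKM, against Vehicle, at 0.564 ± 0.220 FPKM (SD, n = 5 each, ratio 0.642, exact permutation p = 0.0238, adjusted p = 0.143). These means were, without the 4 libraries, 0.362 FPKM in GW3965 and 0.459 FPKM in Vehicle. For Hhip the ratio of 25HC to GW3965 was 1.15 (exact permutation p = 0.238, adjusted p = 0.357).

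The sulfated and the free oxysterol were compared at the same dose of 20 µM, where they differ by the sulfate at the 3 position. No Hedgehog gene passed between them, and the 95% intervals of the difference of 25HC3S from 25HC were -0.073 to 0.17 for Smo, -0.082 to 0.28 for Ptch1, -0.18 to 0.19 for Gli2, -0.14 to 0.58 for Gli3 and -0.36 to 0.18 for Sufu. The interval of Gli3 includes 0.36, its difference for 25HC3S against GW3965 with all libraries. Those of Smo, Ptch1 and Gli2 end short of that size, and that of Sufu comes near it only below 0. For Gli1 the ratio of 25HC3S to 25HC was 0.875 (exact permutation p = 0.437, adjusted p = 0.524) and for Hhip 1.09 (p = 0.635, adjusted p = 0.635). In the same comparison the LXR target Abcg1 was higher in 25HC3S, at 3.07 FPKM, than in 25HC, at 1.46 FPKM, a difference of 0.70 ± 0.12 (limma adjusted p = 0.00539), or 0.56 without the 4 libraries (adjusted p = 4.59e-05). The other LXR control genes were not alike there: Abca1 differed by 0.58 (adjusted p = 0.0366), and Srebf1 by -0.30 (adjusted p = 0.481), or -0.25 without the 4 libraries (adjusted p = 0.0013). With all 20 libraries, 1 of the 3 LXR control genes was called lower in 25HC than in Vehicle, beside 0.0392% of all genes. Every 25HC value of Abca1 (5.5 to 6.76 FPKM) lay below every Vehicle value (8.53 to 14 FPKM). In that comparison 2.33% of all genes did not overlap. Without the 4 libraries, so with 2 Vehicle libraries, Abca1 was lower in 25HC than in Vehicle (-0.46, limma adjusted p = 0.0191). In 25HC3S Abca1 differed from Vehicle by 0.014 (adjusted p = 0.944). Abcg1 then differed from Vehicle by -0.19 in 25HC (adjusted p = 0.844) and by 0.37 in 25HC3S (adjusted p = 0.0186).

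The ligands were all but silent. Shh had 0 fragments in all 20 libraries. Ihh, the ligand of the growth plate, had 1 to 14 fragments per library and averaged 0.0862 FPKM in 25HC, 0.0757 in 25HC3S, 0.117 in GW3965 and 0.158 FPKM in Vehicle, with overlapping ranges. Dhh had 0 to 12 fragments and reached 0.162 FPKM in 25HC3S, the highest value of the series. Of 8 ligand and ligand-release genes, 3 were tested (Disp1, Hhat and Scube1), and 0 were called in any comparison with all libraries. Scube1, a secreted protein of the family that helps release Hedgehog ligands, was called in 4 of 6 comparisons without the 4 libraries. It was then lower than in Vehicle, with 2 Vehicle libraries, for 25HC3S (-0.32, limma adjusted p = 0.0118) and GW3965 (-0.22, adjusted p = 0.0451). It was also lower in 25HC3S than in 25HC (-0.29, adjusted p = 0.00244) and higher in 25HC than in GW3965 (0.19, adjusted p = 0.0147). In these comparisons, in that order, 3.95%, 7.77%, 7.18% and 13.1% of all genes were called.

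The co-receptors were, by contrast, abundant. Gas1, a membrane-anchored ligand-binding protein, ran from 56.0 to 118 FPKM over the 20 libraries, Cdon from 26.7 to 44.6 FPKM and Boc from 14.5 to 21.3 FPKM, while Lrp2 ran from 0.0508 to 0.271 FPKM. Of the 3 that were tested, 0 were called with all libraries. Gas1 had 58.4, 77.0, 75.5, 72.2 and 75.6 FPKM in 25HC3S, against 101, 95.7, 97.4, 105 and 92.3 FPKM in 25HC. It had 66.5, 67.1, 63.6, 69.8 and 61.6 FPKM in GW3965, against 99.5, 118, 59.8, 56.0 and 86.1 FPKM in Vehicle. Every 25HC3S library lay below every 25HC library, and every 25HC library above every GW3965 library. In those comparisons 7.29% and 11.1% of all genes tested did not overlap, in either direction. Vehicle spanned them all, its 2 lowest values and its highest being from the 4 libraries.

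For Gas1 the call turned on the 4 libraries. With all 20 the difference was -0.45 ± 0.15 (SE) for 25HC3S against 25HC (limma adjusted p = 0.291) and 0.57 ± 0.15 for 25HC against GW3965 (adjusted p = 0.0615). Without them it was -0.38 ± 0.05 (adjusted p = 1.22e-04) and 0.57 ± 0.04 (adjusted p = 4.27e-07), where 7.18% and 13.1% of all genes were called. Gas1 was then also lower in 25HC3S than in Vehicle (-0.30, adjusted p = 0.0111) and lower in GW3965 than in Vehicle (-0.49, adjusted p = 6.3e-05), with 2 Vehicle libraries, and higher in 25HC3S than in GW3965 (0.19, adjusted p = 0.0101). Outside the 4 libraries the summed osteoblast and osteocyte markers were 137 to 154 FPKM in 25HC3S, 162 to 173 in 25HC and 139 to 154 FPKM in GW3965, against 143 to 144 FPKM in Vehicle. The macrophage markers were 302.5 to 374 FPKM in 25HC3S, 386 to 550.3 in 25HC and 449 to 556 FPKM in GW3965, against 475 to 541 FPKM in Vehicle. Genes of dividing cells were 154 to 171 FPKM in 25HC3S, 136 to 155 in 25HC and 94.8 to 104 FPKM in GW3965, against 148 to 159 FPKM in Vehicle. The synovial and tendon markers were 244.7 to 278.5 FPKM in 25HC3S, 256 to 302.7 in 25HC and 216.6 to 253.4 FPKM in GW3965. In Vehicle they were 259.1 to 299.4 FPKM. The part of these cell types in the Gas1 differences was not tested.

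**Figure D5:**
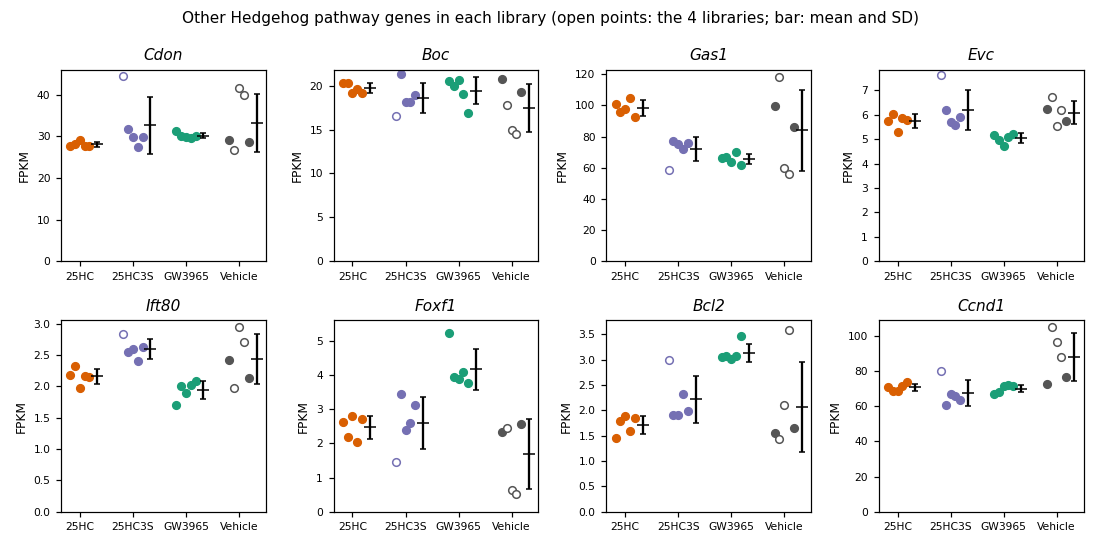
FPKM of 8 other Hedgehog pathway genes in every library, one panel per gene with its own linear axis from 0, points for libraries, open points for the 4 libraries, and bars for the mean and SD of 5 libraries. Gas1 is lower in 25HC3S and GW3965 than in 25HC, Foxf1 and Bcl2 are highest on average in GW3965, and Vehicle has the widest bars for Gas1, Foxf1, Bcl2 and Ccnd1.

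Downstream of the receptors the share of genes called was near that of all genes. Of 23 genes that pass the signal on from SMO or control the GLI proteins, all tested, 1 was higher in 25HC3S against GW3965, where 4.63% of all genes were called, and 0 were called in the other 5 comparisons. It was Evc, a partner of SMO at the base of the cilium, with 7.62, 6.19, 5.70, 5.59 and 5.93 FPKM in 25HC3S and 5.17, 4.97, 4.72, 5.09 and 5.22 FPKM in GW3965, a difference of 0.25 ± 0.07 (limma adjusted p = 0.0451), or 0.18 without the 4 libraries (adjusted p = 0.00557). Vehicle had 6.25, 6.73, 5.56, 6.19 and 5.73 FPKM of Evc, within or near the 25HC3S range and above every GW3965 value. In the fit without the 4 libraries, Evc differed from Vehicle by -0.029 in 25HC3S (limma adjusted p = 0.849) and by -0.21 in GW3965 (adjusted p = 0.0188). Of 16 tested cilium genes 1 was called in 25HC3S against GW3965, beside the same 4.63% of all genes. It was Ift80, an intraflagellar transport protein, with 2.84, 2.54, 2.60, 2.40 and 2.62 FPKM in 25HC3S and 1.71, 2.00, 1.90, 2.02 and 2.08 FPKM in GW3965 (0.29 ± 0.07, limma adjusted p = 0.0256, or 0.27 and 0.00126 without the 4 libraries). For both genes every 25HC3S value exceeded every GW3965 value, beside the 12.2% of all genes that did not overlap there in either direction. Of the 10 fits that left out 1 library, the call of Evc held only without 25HC3S replicate 3 or 4, and that of Ift80 only without 25HC3S replicate 4 or GW3965 replicate 2, 4 or 5, with adjusted p up to 0.130 and 0.0863 in the others. Tulp3, which brings receptors into the cilium, rose in GW3965 against Vehicle by 0.16 ± 0.05 (limma adjusted p = 0.0471, or 0.15 and 0.0305 without the 4 libraries), a call that held only without Vehicle replicate 1, 2 or 5 among such fits and had an adjusted p of up to 0.109 in the others. These calls also ended in other fits, that of Evc (limma adjusted p = 0.0682) and Tulp3 (0.268) with only the groups compared and that of Ift80 with the replicate block (0.0697). With the 4 libraries left out, 2 of the 23 genes were higher and 1 lower in 25HC against GW3965, 1 was higher and 3 lower in 25HC3S against GW3965, 1 was lower in 25HC3S against 25HC and 1 in GW3965 against Vehicle, beside 13.1%, 17.9%, 7.18% and 7.77% of all genes called.

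Among the further target genes of Hedgehog signalling, Foxf1 and Bcl2 rose in GW3965 against Vehicle and Ccnd1 fell. These were 2 higher and 1 lower of 12 tested, beside 6.46% of all genes called, with a median difference of 0.21 for the list and 0.024 for all genes. When the 4 libraries were left out, 3 were higher and 0 lower, beside 7.77% of all genes, and the medians were 0.020 for the list and 0.0071 for all genes. Foxf1, a transcription factor of mesenchyme, had 5.22, 3.93, 3.87, 4.08 and 3.76 FPKM in GW3965, against 2.32, 2.44, 0.637, 0.529 and 2.56 FPKM in Vehicle. The groups did not overlap, as for 7.07% of all genes. The difference was 1.03 ± 0.22 (SE, limma adjusted p = 0.00697), 0.58 without the 4 libraries (adjusted p = 0.00562), and did not pass when only these 2 groups were fitted (adjusted p = 0.10). Foxf1 had 2.63, 2.20, 2.79, 2.03 and 2.70 FPKM in 25HC and 1.46, 3.45, 2.40, 2.61 and 3.12 FPKM in 25HC3S, all below the lowest GW3965 value, and its difference from Vehicle did not pass in either group (adjusted p = 0.164 and 0.264).

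Bcl2, an inhibitor of cell death, rose in GW3965, with 3.05, 3.07, 3.02, 3.07 and 3.46 FPKM, against 1.56, 1.43, 2.11, 3.58 and 1.65 FPKM in Vehicle (0.47 ± 0.14, limma adjusted p = 0.0435). It was lower in 25HC, at 1.46, 1.79, 1.89, 1.59 and 1.84 FPKM, than in GW3965 (-0.61 ± 0.14, adjusted p = 0.0199). Of the fits that left out 1 library, the first call held only without Vehicle replicate 1, 4 or 5, with adjusted p up to 0.0913 in the others, and the second ended without 25HC replicate 1 or 4 or GW3965 replicate 5, with adjusted p up to 0.065. Without the 4 libraries Bcl2 was called in both comparisons (0.67, adjusted p = 3.6e-05, and -0.61, adjusted p = 2.59e-06), where 7.77% and 13.1% of all genes were called. Ccnd1, a cyclin of the G1 phase, fell against Vehicle by 0.31 on the log2 scale in GW3965 (adjusted p = 0.0453) and by 0.37 in 25HC3S (adjusted p = 0.042). Without the 4 libraries the GW3965 difference was -0.09 (adjusted p = 0.272). That of 25HC3S was -0.21 (adjusted p = 0.0138), where 3.95% of all genes were called. Leaving out 1 library, the GW3965 call held only without Vehicle replicate 1 or 5, and the 25HC3S call only without those or 25HC3S replicate 1, with adjusted p up to 0.110 and 0.133 in the others. Gli1, Ptch1 and Hhip, the targets read most directly as pathway activity, did not pass in GW3965 against Vehicle: their ratios of means to Vehicle were 0.816 for Gli1 and 0.642 for Hhip, and Ptch1 averaged 3.06 FPKM in GW3965 and 3.43 FPKM in Vehicle. Of the 3 tested growth plate genes (Pth1r, Runx2 and Col10a1), 0 were called in any comparison with all libraries. Pth1r, the receptor of parathyroid hormone-related protein, was without the 4 libraries higher in 25HC than in GW3965 (0.35, limma adjusted p = 0.00104). It was also higher in 25HC3S than in GW3965 (0.20, adjusted p = 0.0409). In those comparisons 13.1% and 17.9% of all genes were called.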

How the data were processed

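RNA of 20 libraries of mouse articular chondrocytes was sequenced, and the authors deposited 1 table of FPKM with gene coordinates and lengths for 54532 genes. CASAVA 1.8 and HISAT2 2.0.5 were used, per the submitters' processing notes. No genome build, counter or strand setting is given in the sources used here. GENCODE M21 held 99.77% of the IDs, and 98.33% of those had the same coordinates there. The deposited length of Sufu, 6945 bases, differs from the 7691 merged exon bases of that release, which scales its FPKM in all libraries alike. Fragments were recovered from the FPKM and gene lengths, since after division by 1 step for each library 100% of values lay less than 0.02 from a whole number. PCR copies are not independent molecules, so counting intervals and floors cover counting error only.

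Genes with at least 1 FPKM in at least 5 libraries (12752) were tested on log2(FPKM + 1) by limma 3.58.1 (R 4.3.3), with 1 mean per group over all 20 libraries, a trended empirical Bayes variance and two-sided tests. The scale understates changes of low genes. The fit was checked on simulated data with independent noise in each gene and library, which cannot show the effect of libraries that deviate together. Gli1 and Hhip, under the filter, were tested with exact permutation tests (scipy 1.17.1). Groups follow the treatment labels. The alternatives tried were another pseudocount, no filter, fits of 2 groups, rescaling, limma-voom, array weights, the replicate block, leaving out the 4 libraries, and leaving out each library.

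All 7 Hedgehog genes are named, as are the 3 ligands, the co-receptors, and every gene of the other pathway lists that was called in a comparison, up to 6 per list; a further gene that this rule names is not reported here. The 3 most similar genes are named for tested members with an SD of at least 0.2. Members, lists and the set of 4 libraries were chosen with earlier results of these data known.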

Additional observations from a re-analysis of the deposited data

Results flagged for a closer look

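Of 28 sets of 5 libraries (7 Hedgehog genes in 4 groups), 6 held 1 library far from the other 4 by Dixon's criterion at the 95% level, where chance flags about 1 in 20. Of these 6, 4 values belong to libraries of the 4 described above. In 25HC3S, replicate 1 had 4.38 FPKM of Ptch1, against 3.00 to 3.35 FPKM in its other replicates, 8.03 FPKM of Gli3, against 5.11 to 5.75 FPKM, and 0.658 FPKM of Hhip, against 0.366 to 0.423 FPKM. In Vehicle, replicate 3 had 0.944 FPKM of Hhip, against 0.407 to 0.534 FPKM in the other 4. The other 2 values were from libraries outside the 4. Gli1 had 0.171 FPKM in GW3965 replicate 3, against 0.0769 to 0.102 FPKM in the other 4, and rests there on 14 fragments. Gli3 had 4.46 FPKM in 25HC replicate 4, against 4.98 to 5.16 FPKM in the other 4.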

How the results depend on the processing

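In the 6 comparisons, 0 of the 5 tested Hedgehog genes were called by limma with all libraries, and the count stayed 0 with a pseudocount of 0.1, without the filter, after rescaling and with limma-voom. It became 1 (Gli3) for GW3965 against Vehicle and for 25HC3S against GW3965 with array weights and without the 4 libraries, and 1 (Gli3) for 25HC3S against GW3965 when only those groups were fitted. Leaving out 1 library gave counts of 0 to 1 for 25HC against Vehicle, 0 to 2 for GW3965 against Vehicle and 0 in the other 4. Of 30 same-numbered pairs of libraries, 4 had a correlation of deviations over 0.1 (range -0.702 to 0.27). Pairs of unlike number were not compared, so these values cannot decide whether replicate numbers pair the libraries. With the replicate block the count was 0 in all 6 comparisons, and the calls of Bcl2 (adjusted p = 0.0739), Ccnd1 (0.0928) and Tulp3 (0.0888) in GW3965 against Vehicle, of Ccnd1 in 25HC3S against Vehicle (0.106) and of Ift80 (0.0697) ended. Fitting only the groups compared ended Foxf1 (0.10), Bcl2 (0.229), Ccnd1 (0.237) and Tulp3 (0.268) in GW3965 against Vehicle, Ccnd1 in 25HC3S against Vehicle (0.699) and Evc (0.0682). Without the filter, Bcl2 (0.0938) and Ccnd1 (0.0789) in GW3965 against Vehicle, Ccnd1 in 25HC3S against Vehicle (0.0655), Bcl2 in 25HC against GW3965 (0.0509), Evc (0.0706) and Ift80 (0.0524) no longer passed. After rescaling, Bcl2 (0.0519) and Tulp3 (0.0608) did not pass in GW3965 against Vehicle, nor did Tulp3 with limma-voom (0.0588) or Ccnd1 with array weights (0.132). Why these calls differ was not tested.

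The number of all genes called moved by over 1.5 times. For 25HC against Vehicle it was 5, and 16 with array weights, 3 without the 4 libraries, 1 with the 2 groups alone or the replicate block, and 1 to 2659 with 1 library left out. For 25HC3S against Vehicle it was 205, and 769, 504 and 23 with array weights, without the 4 and with 2 groups, and 98 to 622 with 1 left out. For GW3965 against Vehicle it was 824, and 152 with 2 groups, 544 with the replicate block and 450 to 3247 with 1 left out. For 25HC3S against 25HC it was 104, and 1053, 916 and 205 with array weights, without the 4 and with 2 groups, and 60 with 25HC replicate 3 left out. For 25HC against GW3965 it was 222, and 1676, 1674 and 1427 in those 3 settings. For 25HC3S against GW3965 it was 591, and 2372, 2278 and 1009 in them.

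Small uncalled differences turned sign. Without the 4 libraries those from Vehicle became 0.041 (Smo), 0.046 (Ptch1) and -0.053 (Gli2) for 25HC, 0.072 (Ptch1), -0.017 (Gli2), 0.041 (Gli3) and -0.032 (Sufu) for 25HC3S, and 0.0028 (Smo), 0.025 (Ptch1), -0.039 (Gli2) and -0.052 (Sufu) for GW3965, and Gli2 and Sufu became 0.022 and 0.020 for 25HC3S against GW3965. With array weights they became 0.043 (Smo), 0.028 (Ptch1) and -0.025 (Gli2) for 25HC, 0.064 (Ptch1), 0.052 (Gli3) and -0.015 (Sufu) for 25HC3S and 0.0095 (Smo), 0.022 (Ptch1), -0.0087 (Gli2) and -0.024 (Sufu) for GW3965, and Gli2 and Sufu 0.011 and 0.0095 for 25HC3S against GW3965. With limma-voom they became 0.034 (Smo, 25HC against Vehicle), 0.045 (Ptch1) and 0.026 (Gli3, both 25HC3S against Vehicle), and for Gli2 0.0023 (25HC against GW3965) and 0.011 (25HC3S against GW3965).

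With 1 library left out, sign changes occurred within -0.040 to 0.035 for Smo (25HC against Vehicle), -0.073 to 0.047 for Ptch1 and -0.20 to 0.11 for Gli3 (25HC3S against Vehicle), -0.022 to 0.036 for Gli2 (25HC3S against 25HC), -0.0050 to 0.046 for Ptch1 (25HC against GW3965), and -0.036 to 0.022 for Gli2 and -0.057 to 0.020 for Sufu (25HC3S against GW3965). In FPKM, the mean of Hhip in 25HC3S minus that in 25HC was -0.0126 without the 4 libraries and -0.0126 to 0.0604 with 1 left out. That of Gli1 in GW3965 minus Vehicle ran from -0.058 to 0.00272. The Gli1 difference was 0.119 to 0.158 FPKM for 25HC against GW3965 and 0.0859 to 0.124 FPKM for 25HC3S against GW3965 with 1 left out, with exact adjusted p of 0.0476 to 0.0952, and both kept an adjusted p of 0.0476 after rescaling, without the 4 libraries and as fragments scaled to library size, which was added after seeing the data. The depth limits Gli1 most, at 7 to 31 fragments in a library of the treated groups.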

Other observations

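Lrp2, a large endocytic receptor that can bind Hedgehog ligands, was under the filter and untested. It had 17 to 34 fragments per library and 0.0779 ± 0.0296 FPKM in 25HC3S, against 30 to 56 fragments and 0.144 ± 0.0319 FPKM in 25HC, 31 to 60 fragments and 0.162 ± 0.0365 FPKM in GW3965, and 28 to 71 fragments and 0.154 ± 0.0790 FPKM in Vehicle (SD, n = 5 each). Dhh had 26 fragments over the 5 libraries of 25HC3S, 12 of them in a single library, against 4 in 25HC, 9 in GW3965 and 12 in Vehicle. The 10 genes of dividing cells, among them 8 that fell and 0 that rose in GW3965 against Vehicle (limma, adjusted p under 0.05), had a median difference of -0.61 there, beside a median of -0.05 for the 5 tested Hedgehog genes.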
